A study of Mus musculus with 2 samples.

Results

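Phototransduction genes of rods and cones were compared between cultured mouse retinal progenitor cells and mouse retina. The set holds 33 genes, chosen by name for their place in the light response, out of 31253 genes to which the expression table could be assigned. By class, 11 are used by rods, 10 by cones and 12 by both cell types. All 33 were in the table.

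The study set progenitor cells beside retina to ask, among other things, which genes of mature retinal cells the cultured cells express. Adult mouse neural retinal progenitor cells (mNRPCs) of the C57BL/6 strain had been isolated from dissociated neural retina, grown on Matrigel with basic fibroblast growth factor and the glycogen synthase kinase 3 inhibitor CHIR99021, and collected at passage 24. The other sample was retina tissue of the same strain, for which the sources used here give no age. There was 1 library of total RNA per group, so the replicate error is unknown and no test was made. Values are FPKM, a measure of fragments scaled to transcript length and to library size, summed over the transcripts of a gene. Because both samples are bulk RNA, fewer cells of a type and less RNA per cell cannot be told apart.

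In a photoreceptor, light activates an opsin, the opsin activates the G protein transducin, and transducin removes the inhibitory subunits from a cGMP phosphodiesterase. The fall in cGMP closes cyclic nucleotide-gated channels in the outer segment membrane. Arrestin, a kinase and a GTPase-activating complex then end the signal, and guanylate cyclases make new cGMP. Rods and cones run the same steps, mostly with products of different genes.

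All 33 genes were at least 2-fold lower in mNRPCs on the log2(FPKM + 1) scale. Among the 13780 genes that reached 1 FPKM in at least 1 library, the share was 30.0%, and among all 31253 genes it was 13.2%. Of the 33 genes, only 8 reached 1 FPKM in mNRPCs, so the others were compared through their retina level alone. The median log2 ratio of mNRPC to retina was −7.68 for the 33 genes and −0.12 for all genes compared. Single genes ran from −11.50 for Gngt1, the lowest ratio of any gene compared, to −1.66 for Cngb3. Of the 100 genes with the lowest ratios, 23 were phototransduction genes. The genes were also among the strongest of the tissue, as 12 of them stood among the 50 genes with the highest FPKM in retina.

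Together the 33 genes summed to 30737 FPKM in retina, 7.11% of that library, and to 236 FPKM in mNRPCs, 0.0383% of that library. Most of the mNRPC sum came from few genes. Gnb1 alone held 73.4% of it, and Gnb1, Reep6, Gnb5 and Rom1 held 93.0%. The other 29 genes summed to 16.5 FPKM in mNRPCs and 25969 FPKM in retina, so that the mNRPC sum was 0.0636% of the retina sum.

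**Figure D1:**
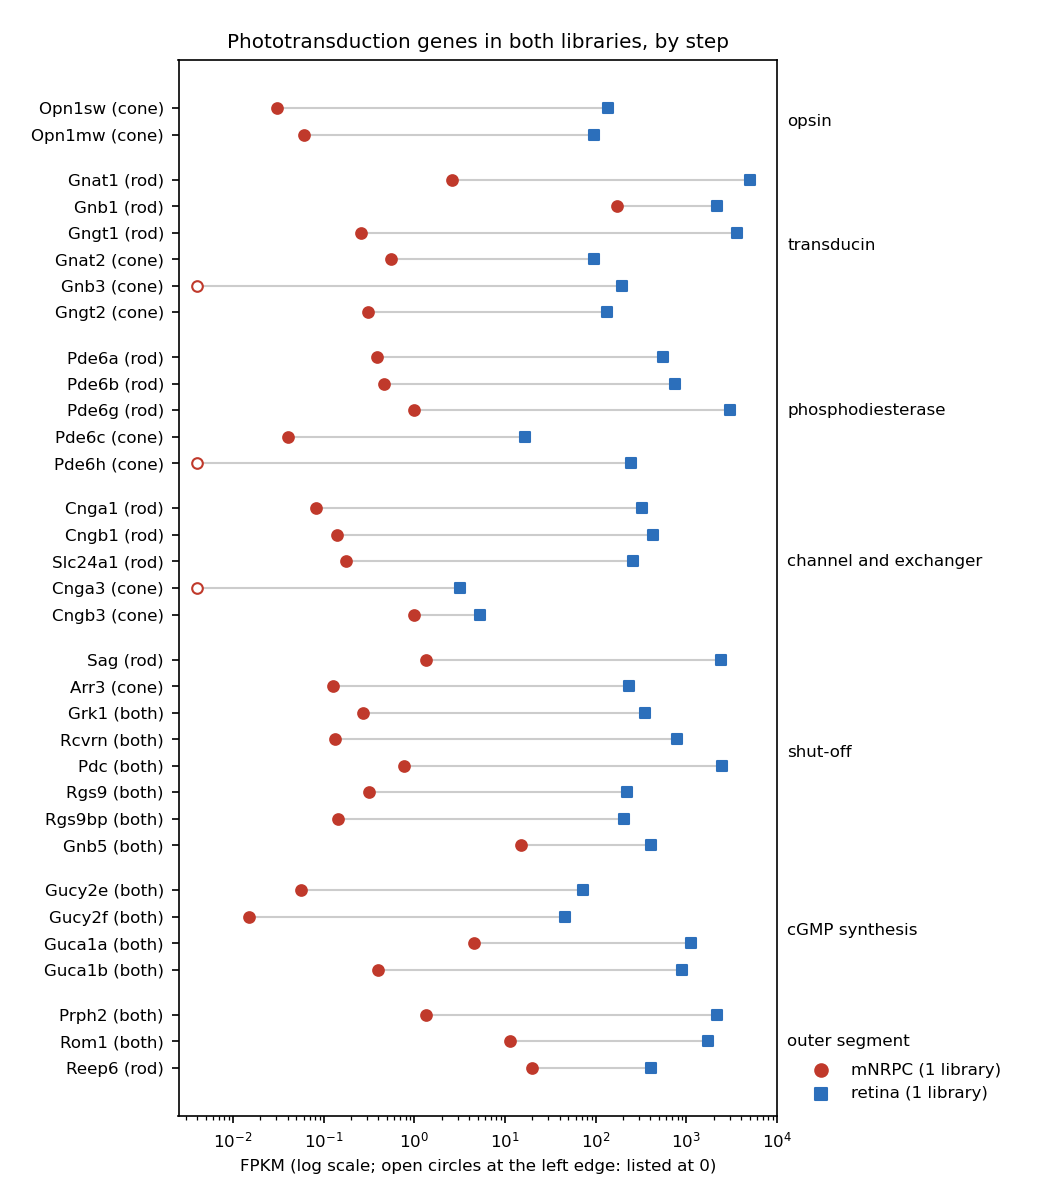
FPKM of the 33 phototransduction genes (log axis) in the mNRPC library (circles) and the retina library (squares), ordered by step of the cascade, with 1 library per group and no error bars. Every circle lies to the left of its square, 3 genes are listed at 0 in mNRPCs (open circles), and Gnb1 at 173 FPKM is the highest circle.

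The opsins come first in the cascade. Opn1sw, the short-wavelength cone opsin, was at 0.0308 FPKM in mNRPCs and 137 FPKM in retina. Opn1mw, the medium-wavelength cone opsin, was at 0.0610 and 95.8 FPKM. Both mNRPC values came to less than 1 estimated fragment, a number that depends on the estimated depth. They therefore do not settle whether either transcript was present in the cultured cells. In retina Opn1sw stood 1.43 times as high as Opn1mw. Of the exonic bases of Opn1sw, 397 overlap Calu on the other strand, which was at 321 FPKM in mNRPCs and 35.8 FPKM in retina, and the sources used here do not say whether strand was used in counting.

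Transducin links the opsin to the phosphodiesterase and is built of an alpha, a beta and a gamma subunit. Gnat1, the rod alpha subunit, was the highest of the 33 genes in retina with 5072 FPKM and was at 2.58 FPKM in mNRPCs. The mNRPC level was 0.0509% of the retina level, with a 95% counting interval of 0.0361 to 0.0697%. Gnat1 had an estimated 38.5 fragments in mNRPCs behind this value. Gngt1, the rod gamma subunit, was at 0.255 and 3636 FPKM, or 0.00702% (0.000807 to 0.0258%). The interval of Gngt1 ended below the lower end of that of Gnat1. However, Gngt1 had only an estimated 1.94 fragments in mNRPCs, and the intervals cover counting error only. No difference between the subunits was therefore drawn from these values. Both subunits belong to 1 complex and stood within 1.39-fold of each other in retina.

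Gnb1, the rod beta subunit, which also serves other G proteins in many cell types, behaved differently from its partners. It was at 173 FPKM in mNRPCs and 2200 FPKM in retina, which is 7.87% of the retina level (7.61 to 8.14%). Its 3 transcript forms, which all encode 340 codons, lay at 6.70 to 9.64% of their retina levels, so no single form carried the mNRPC level.

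Of the cone subunits, Gnat2, the alpha subunit, was at 0.548 and 95.1 FPKM, or 0.576% of retina (0.236 to 1.18%). The interval lay above that of Gnat1. The curated Gnat2 transcript gave 0.310 FPKM in mNRPCs, and a predicted transcript gave the remaining 0.238 FPKM, 43.4% of the gene there against 3.51% in retina. Gnb3, the cone beta subunit, reached 197 FPKM in retina but was listed at 0 in the cultured cells. Gngt2, the cone gamma subunit, was at 0.309 and 132 FPKM, with 1.12 estimated fragments in mNRPCs. Its retina level was spread over several transcripts, of which a predicted one held 63.2%.

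The phosphodiesterase of rods has the catalytic subunits Pde6a and Pde6b and the inhibitory subunit Pde6g. Pde6a was at 0.384 FPKM in mNRPCs and 546 FPKM in retina, or 0.0703% (0.0355 to 0.125%). Pde6b was at 0.467 and 742 FPKM, or 0.0629% (0.0278 to 0.122%). Pde6g was at 0.993 and 3026 FPKM, or 0.0328% (0.0117 to 0.0726%). The intervals of the 3 rod subunits overlap. In cones a single catalytic subunit, Pde6c, was at 0.0404 and 16.8 FPKM, less than 1 estimated fragment in mNRPCs. Pde6h, the cone inhibitory subunit, reached 244 FPKM in retina but was listed at 0 in the cultured cells. Within retina, Pde6b stood 1.36 times as high as Pde6a, and the inhibitory Pde6g stood above both.

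The cGMP-gated channel passes the inward current of the dark state, and the exchanger Slc24a1 returns calcium to the outside of the rod. Cnga1, the rod alpha subunit of the channel, was at 0.0832 FPKM in mNRPCs and 325 FPKM in retina. Cngb1, the rod beta subunit, was at 0.140 and 423 FPKM, or 0.0330% (0.0115 to 0.0741%). Slc24a1 was at 0.178 and 260 FPKM, or 0.0684% (0.0250 to 0.149%). Cnga1 had 1.46 estimated fragments in mNRPCs and was at 0.0256% (0.00174 to 0.111%), so that its interval, like those of Cngb1 and Slc24a1, overlaps those of the rod phosphodiesterase.

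Cngb1 makes more than the channel subunit. In retina a short transcript of 326 codons, which encodes a soluble glutamic acid-rich protein without the channel domains, held 331 FPKM or 78.2% of the gene. The full channel subunit of 1325 codons held 82.1 FPKM or 19.4%. Counted by the full-length form, Cnga1 stood 3.96 times as high as Cngb1 in retina. In mNRPCs 99.3% of the small Cngb1 value was placed on the full-length form, which was at 0.169% of its retina level.

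Cone channel genes were the lowest of the set in retina. Cnga3, the cone alpha subunit, was at 3.15 FPKM in retina and listed at 0 in mNRPCs. Cngb3, the cone beta subunit, was at 0.997 FPKM in mNRPCs and 5.29 FPKM in retina. At 18.8% of retina (12.7 to 26.9%) and an estimated 30.1 fragments, Cngb3 was the gene of the set whose mNRPC level came closest to retina. The gene lies at chr4:19280850-19510623 (GRCm38, plus strand), has 1 transcript in the table and shares no exonic bases with another annotated gene. Its partner Cnga3 was listed at 0 in the same library.

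The shut-off step covers several functions. Sag, rod arrestin, which caps the activated opsin, was at 1.33 FPKM in mNRPCs and 2404 FPKM in retina, or 0.0554% (0.0308 to 0.0918%). Arr3, cone arrestin, was at 0.125 and 234 FPKM, an estimated 1.09 fragments in mNRPCs. Grk1, the kinase that phosphorylates the opsin, was at 0.274 and 346 FPKM, or 0.0790% (0.0421 to 0.135%). These upstream shut-off genes all lay below 0.1% of retina.

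Rcvrn, recoverin, a calcium sensor that restrains this kinase, was at 0.133 and 783 FPKM, with 0.890 estimated fragments in mNRPCs. The study names recoverin among the markers of its mNRPCs by immunofluorescence, which reads protein and not RNA. Pdc, phosducin, which binds the transducin beta and gamma subunits, was at 0.774 and 2481 FPKM, or 0.0312% (0.0116 to 0.0673%). Pdc was the fourth highest gene of the set in retina, and 2 transcripts with the same 244 codons held 68.3 and 31.7% of it.

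The complex that speeds the GTPase of transducin is made of Rgs9, its anchor Rgs9bp and the beta subunit Gnb5. Rgs9 was at 0.314 FPKM in mNRPCs and 219 FPKM in retina, or 0.143% (0.0441 to 0.344%). Rgs9bp was at 0.144 and 205 FPKM, or 0.0704% (0.0261 to 0.152%). Gnb5 was at 15.1 and 410 FPKM, or 3.69% (3.20 to 4.23%), and so its summed value stood far above its partners in the cultured cells. The Gnb5 transcript that is highest in retina was at 0.282%, inside the interval of Rgs9 and above that of Rgs9bp. In retina the Rgs9 transcript of 484 codons, the form known from photoreceptors, held 218 FPKM and the form of 675 codons, known from the striatum, held 0.240 FPKM. The Rgs9 forms were looked up after their values were seen.

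Synthesis of cGMP rests on 2 membrane guanylate cyclases and on the proteins that activate them when calcium falls. The cyclase Gucy2e was at 0.0562 FPKM in mNRPCs and 71.5 FPKM in retina, or 0.0785% (0.0162 to 0.229%). The cyclase Gucy2f was at 0.0150 and 45.9 FPKM, less than 1 estimated fragment in mNRPCs. Gucy2e stood 1.56 times as high as Gucy2f in retina, but a predicted transcript held 96.6% of Gucy2e there. The curated transcripts of the cyclases were at 2.43 FPKM for Gucy2e and 31.5 FPKM for Gucy2f in retina, which turns the direction, and with curated transcripts only the log2 ratio of Gucy2e was −1.74 in place of −6.10. Of the activating proteins, Guca1b was at 0.395 and 891 FPKM, or 0.0443% (0.0126 to 0.111%). Guca1a was at 4.53 and 1131 FPKM, or 0.401% (0.260 to 0.590%), and its interval lay above that of Guca1b. By the transcript that is highest in retina, however, Guca1a was at 0.0516% and Guca1b at 0.0472%.

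Of the outer segment proteins, Prph2, peripherin, which shapes the disc rim, was at 1.34 FPKM in mNRPCs and 2199 FPKM in retina, or 0.0611% (0.0387 to 0.0917%). Rom1, its partner in the rim, was at 11.2 and 1754 FPKM, or 0.641% (0.527 to 0.773%), with an estimated 109 fragments in mNRPCs. In retina Rom1 stood at 0.798 times Prph2, while in mNRPCs it was the higher of the pair. The gene lies at chr19:8927391-8929356 (GRCm38, minus strand) with 1 transcript in the table, and no other annotated gene shares its exonic bases. Reep6, an endoplasmic reticulum protein that rods need for the transport of membrane cargo, was at 19.998 and 404 FPKM, or 4.95% (4.38 to 5.57%).

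**Figure D2:**
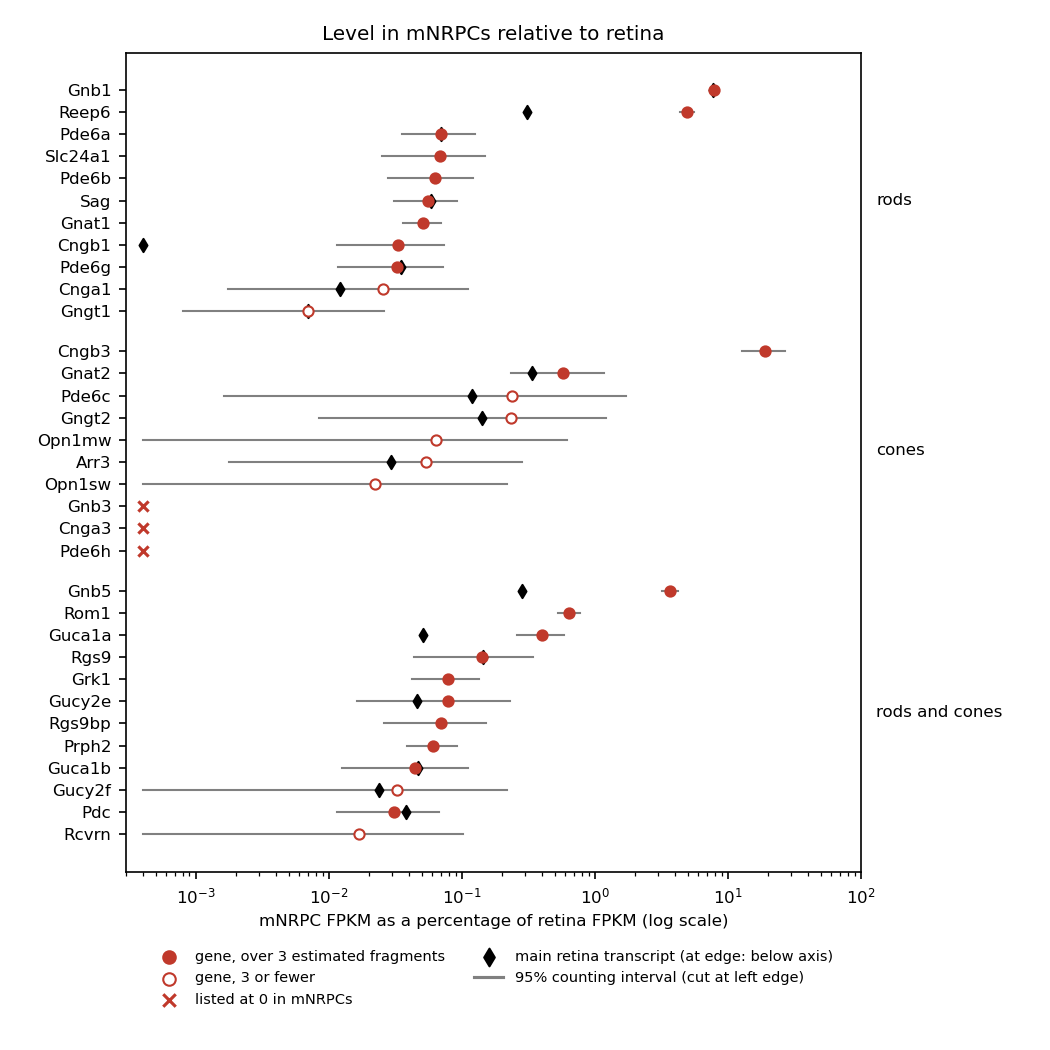
Level of each phototransduction gene in mNRPCs as a percentage of its level in retina (log axis), by class, with 95% counting intervals and 1 library per group. Black diamonds give the same percentage for the transcript that is highest in retina and lie behind a circle where both are alike. Most genes with more than 3 estimated fragments (filled circles) lie between 0.01 and 0.1%, and the diamonds of Cngb1, Reep6, Gnb5 and Guca1a lie far to the left of their circles.

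The genes were also set against one another as percentages of retina. In mNRPCs 29 of the 33 genes were below 1% of their retina level. Among the 31 genes that retina held at 10 FPKM or more, 28 were below 1%, against 8.20% of the 6699 genes of at least 10 FPKM. Among the 26 that it held at 100 FPKM or more, 23 were below 1%, against 17.1% of the 615 genes of at least 100 FPKM. In mNRPCs 21 genes had more than 3 estimated fragments, and 13 of these lay between 0.01 and 0.1% of retina. Gucy2e, counted in both, passed the limit only narrowly with 3.001 estimated fragments.

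The rule of more than 3 fragments depends on the mNRPC level itself, so the genes that pass it are described and not compared. Of the 9 rod genes with more than 3 estimated fragments, 7 lay between 0.0328 and 0.0703%, and the exceptions were Gnb1 and Reep6. Gngt1 and Cnga1, which did not pass, lay below this range. Of the 10 such genes that both cell types use, 6 lay between 0.0312 and 0.0790%, and Rgs9, Guca1a, Rom1 and Gnb5 lay above. By the transcript that is highest in retina, Guca1a was at 0.0516%, inside this range. The retina levels of the 7 rod genes ran from 260 FPKM for Slc24a1 to 5072 FPKM for Gnat1, and their mNRPC levels from 0.140 FPKM for Cngb1 to 2.58 FPKM for Gnat1.

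Cone genes could be followed less well. Of the 10 cone genes, 8 did not exceed 3 estimated fragments in the cultured cells, and the exceptions were Gnat2 and Cngb3. The median log2 ratio was −6.59 for cone genes, −8.63 for rod genes and −7.58 for genes of both. Cone genes were also lower in retina, with a median of 114 FPKM against 742 FPKM for rod genes, and the added 1 FPKM sets a floor under low values. With so few fragments behind the cone genes, no difference between rod and cone genes in their percentage of retina was drawn from these libraries.

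Within retina the rod gene was the higher member in each of the 9 pairings made, which hold no pair of opsins. Over these pairings of counterparts the ratio of rod to cone FPKM ran from 10.3 to 103, with a median of 32.5. The lowest ratios were 10.3 for Sag to Arr3, 11.1 for Gnb1 to Gnb3 and 12.4 for Pde6g to Pde6h. Because Gnb1 also serves other cell types, its ratio in whole retina is not one of rods to cones alone. On values summed over all transcripts, the highest were 103 for Cnga1 to Cnga3 and 80.0 for Cngb1 to Cngb3. The ratio of the channel beta subunits rests mostly on the short form of Cngb1, and with the full-length form alone it was 15.5. The alpha subunits of transducin, Gnat1 and Gnat2, stood at 53.3, and the gamma subunits at 27.6. Most of Gngt2 in retina was held by predicted transcripts, and with curated transcripts only the gamma ratio was above that of the channel alpha subunits. Of the catalytic subunits, Pde6a stood 32.5 times and Pde6b 44.2 times as high as Pde6c. The ratios thus differed within a step as well as between steps.

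**Figure D3:**
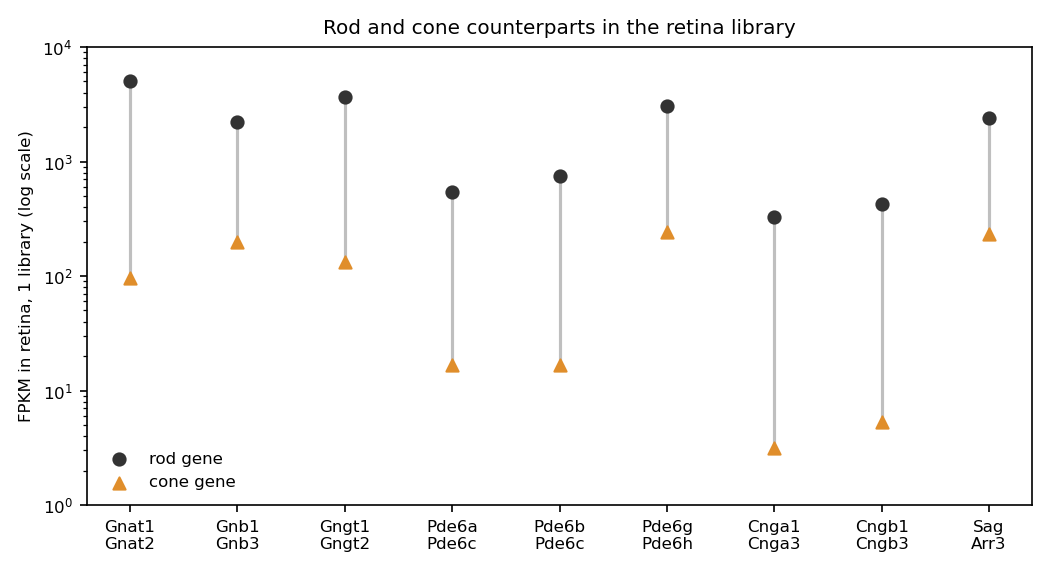
FPKM in the retina library (log axis, 1 library, no error bars) of each rod gene (circle) and its cone counterpart (triangle), for 9 pairings by step. The circle lies above the triangle in every pairing, with summed Cngb1 as the rod channel beta subunit. On values summed over all transcripts, the gap is widest for the channel alpha subunits (103-fold) and narrowest for the arrestins (10.3-fold).

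For 3 genes the summed value joined transcripts that differed between the libraries. In mNRPCs 12 genes reached 0.5 FPKM. Of these, 8 had more than 1 transcript above 0 in at least 1 of the libraries, and in Reep6, Gnb5 and Guca1a the largest transcript differed between the libraries. In the other 5 the same transcript was largest in both. How reads that fit several transcripts were divided among them is not settled for this table. The share of a form is therefore less certain than the sum of the gene.

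Reep6 lies at chr10:80329953-80336441 (GRCm38, plus strand). The form that includes an exon of 81 coding bases, chr10:80334713-80334793, has 201 codons and is the form known from rods. The form without this exon has 174 codons. The exon is shown because the libraries differed in its use, with the exon in capitals and the adjoining coding bases of the transcript in lower case.
Reep6 exon: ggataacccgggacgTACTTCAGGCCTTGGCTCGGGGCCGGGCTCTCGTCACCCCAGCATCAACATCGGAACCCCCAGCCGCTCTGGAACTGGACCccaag

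The form with the exon was at 1.19 FPKM in mNRPCs and 383 FPKM in retina, which is 0.311% of the retina level. The form without it was at 18.2 FPKM in mNRPCs and 14.1 FPKM in retina, 1.29 times the retina level. The direction of this small difference turns when both libraries are brought to the same summed FPKM. Thus the form with the exon made up 94.7% of Reep6 in retina and 5.96% in mNRPCs, where the shorter form held 91.1%.

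Gnb5 lies at chr9:75306288-75345876 (GRCm38, plus strand). Its long form, known from photoreceptors, has 395 codons and begins with a coding exon that the short form of 353 codons lacks. The 126 coding bases of that exon, chr9:75311395-75311520, add 42 codons at the amino end and are shown in capitals from the start codon, followed by the next coding bases in lower case.
Gnb5 long form exon: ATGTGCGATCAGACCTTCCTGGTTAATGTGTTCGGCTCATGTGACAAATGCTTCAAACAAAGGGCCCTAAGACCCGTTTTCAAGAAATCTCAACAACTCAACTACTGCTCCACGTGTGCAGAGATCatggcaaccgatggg

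The long form of Gnb5 was at 1.05 FPKM in mNRPCs and 372 FPKM in retina, or 0.282% of retina. The short form, known from other neurons, was at 14.1 and 37.6 FPKM, or 37.5% of retina. The short form therefore held 93.0% of Gnb5 in mNRPCs and 9.16% in retina. The antisense gene Gm19531 overlaps 248 exonic bases of Gnb5 and was at 0.215 FPKM in mNRPCs and 1.49 FPKM in retina, below the short form in both libraries.

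Guca1a lies at chr17:47394558-47400584 (GRCm38, minus strand). Its curated transcript was at 0.583 FPKM in mNRPCs and 1131 FPKM in retina, or 0.0516% of retina. A predicted transcript was at 3.95 and 0.337 FPKM and so held 87.1% of the mNRPC value and almost nothing of the retina value. Counted by the curated transcript, Guca1a lay close to Guca1b. When every gene was represented by the transcript that is highest in retina, the median of the 33 genes was 0.0588%, and Gnb1 and Cngb3 remained above 1%.

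**Figure D4:**
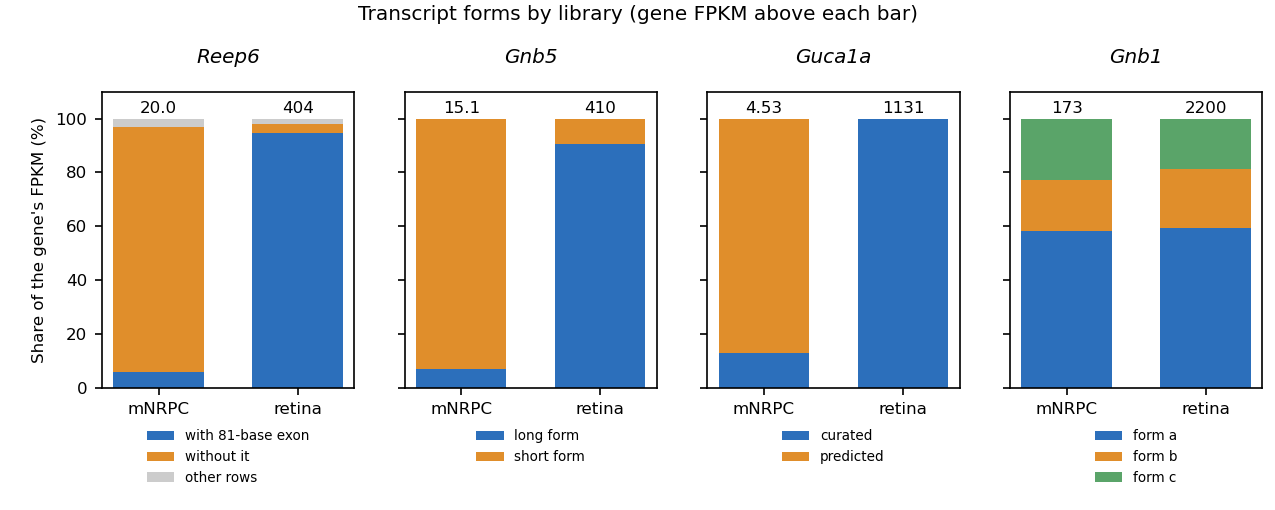
Share of the gene's FPKM (%) held by each transcript form of Reep6, Gnb5, Guca1a and Gnb1 in each library, with the gene's FPKM written above the bar and 1 library per bar. The form that fills most of the retina bar of Reep6, Gnb5 and Guca1a is a small part of the mNRPC bar, while the 3 forms of Gnb1 keep similar shares.

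Promoters were examined because the genes were low together. RefSeq windows (GRCm38.p6) were at hand for 22 of the 33 genes, and the 250 bases before the transcript start were searched on both strands. In 18 of the 23 windows of these genes, bases just after the start matched an annotated transcript of the gene. The position of the start is less certain for the others. TAATCC, a core that the photoreceptor factor CRX is known to bind, was found in 9 of the 22 genes (40.9%) and in 7.21% of all 27025 genes with a window. It was present in 4 of 7 rod genes, 1 of 6 cone genes and 4 of 9 genes of both. TGCTGA, part of the site of the rod factor NRL, was in 4 of the 22 genes (18.2%) and in 18.02% of all genes. TATAAA, the TATA box core, was in 6 of the 22 (27.3%) and in 14.3% of all genes. No motif contains another, and a match is a description of the sequence only.

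The 120 bases before the start are shown for the 5 genes that hold TAATCC or its reverse complement GGATTA there and whose window lies outside the gene's own annotation, with these letters in capitals and each sequence on the strand of its gene. Sag and Cngb1 serve rods, and Gnb5, Guca1a and Gucy2f serve both cell types. The windows are chr1:87803560-87803679 (plus strand) for Sag, chr8:95306586-95306705 (minus strand) for Cngb1, chr9:75306168-75306287 (plus strand) for Gnb5, chr17:47400607-47400726 (minus strand) for Guca1a and chrX:142196937-142197056 (minus strand) for Gucy2f.
Sag: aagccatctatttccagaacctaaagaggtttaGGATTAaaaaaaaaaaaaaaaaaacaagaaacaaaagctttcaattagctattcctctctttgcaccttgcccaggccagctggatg
Cngb1: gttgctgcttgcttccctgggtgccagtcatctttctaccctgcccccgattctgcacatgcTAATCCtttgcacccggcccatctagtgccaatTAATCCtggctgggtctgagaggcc
Gnb5: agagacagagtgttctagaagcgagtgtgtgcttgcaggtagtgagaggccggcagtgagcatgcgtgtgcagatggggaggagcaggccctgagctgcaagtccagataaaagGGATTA
Guca1a: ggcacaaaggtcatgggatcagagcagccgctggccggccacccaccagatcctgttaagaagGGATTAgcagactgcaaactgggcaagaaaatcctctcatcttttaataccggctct
Gucy2f: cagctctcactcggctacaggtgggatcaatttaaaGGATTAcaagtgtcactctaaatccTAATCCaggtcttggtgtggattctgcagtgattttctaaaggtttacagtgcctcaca

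The motif lies 87 bases before the start in Sag, 57 in Guca1a and 6 in Gnb5. Cngb1 holds it at 25 and 58 bases and Gucy2f at 59 and 84 bases. Crx itself was at 0.0977 FPKM in mNRPCs and 467 FPKM in retina. Nrl was at 0.472 and 885 FPKM, and its target Nr2e3, a nuclear receptor of rods, was at 0.212 and 318 FPKM. Crx came to 1.82 and Nr2e3 to 2.77 estimated fragments in mNRPCs. The percentages of retina were 0.0209% for Crx (0.00218 to 0.0797%), 0.0533% for Nrl (0.0223 to 0.107%) and 0.0667% for Nr2e3 (0.0126 to 0.203%).

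Other photoreceptor genes, most of which act outside the cascade, were low as well. The exchanger Slc24a2 is on this list and also on that of the channel and exchanger relatives. Of 26 such genes in the table, all were at least 2-fold lower in mNRPCs, against 30.0% of all genes compared, with a median log2 ratio of −7.05. Only 2 of them reached 1 FPKM in mNRPCs, so the others were compared through their retina level alone. The list was chosen with earlier results of these data known, so the count is a description and not independent evidence. Highest relative to retina was Pde6d, which carries lipid-modified proteins in many cell types, with 40.1 FPKM in mNRPCs and 97.7 FPKM in retina (41.1%). Unc119, a carrier of transducin, was at 31.0 and 1315 FPKM (2.36%), and the retinol dehydrogenase Rdh12 was at 0.833 and 267 FPKM (0.312%). At the other end Nxnl1 and Rdh8 reached 105 and 49.96 FPKM in retina but were listed at 0 in the cultured cells.

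Relatives of the phototransduction genes were less far from retina. Of 81 paralogs compared, which serve like steps in other cells, 45 were at least 2-fold lower in mNRPCs, 18 were higher and 18 lay within 2-fold, beside 30.0% lower and 24.5% higher among all genes compared. Their median log2 ratio was −1.31. After both libraries were brought to the same summed FPKM 84 were compared and the split was 51 lower and 16 higher, with a median of −1.75, beside 42.4% lower and 18.4% higher among all genes.

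Among transducin relatives 9 were lower, 7 higher and 4 within 2-fold. Gnas, the stimulatory alpha subunit, was the highest in both libraries with 655 FPKM in mNRPCs and 416 FPKM in retina. The G protein subunits that mNRPCs held at high levels were thus not those of photoreceptors, with Gnb1 as the exception among the 33 genes. Of the phosphodiesterase relatives 11 were lower, 4 higher and 1 within 2-fold. Pde7a led in mNRPCs with 31.1 FPKM against 8.18 FPKM in retina, and Pde4b led in retina with 19.7 FPKM against 1.19 FPKM in mNRPCs. Both hydrolyse cAMP. Pde5a, which hydrolyses cGMP and was chosen with its values known, stood at 18.1 FPKM in mNRPCs and 1.65 FPKM in retina.

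Of the channel and exchanger relatives 9 were lower and 1 was higher, or 10 and 0 with only the transcript that is highest in retina. The higher one, the mitochondrial exchanger Slc8b1, was at 16.9 FPKM in mNRPCs and 3.91 FPKM in retina. None of these relatives came near the retina level of the rod channel. Of the shut-off relatives 10 were lower, 9 lay within 2-fold and none was higher, although 1 was counted higher with a pseudocount of 0.1 and 1 with only the transcript that is highest in retina. The calcium sensor Hpcal1 was at 69.8 and 36.2 FPKM, and its relative Vsnl1 was at 0.246 and 48.5 FPKM. Of these sensors, Hpcal1 lay within 2-fold and Vsnl1 was lower.

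Among cyclase relatives 3 of 4 were lower. Npr2, a natriuretic peptide receptor with cyclase activity, was at 14.6 FPKM in mNRPCs and 11.2 FPKM in retina, and the direction of this gene turned after that rescaling. Gucy1b1, a subunit of the soluble cyclase, was at 0.0943 and 49.1 FPKM. Of the relatives of the outer segment proteins 6 were higher, 3 lower and 2 within 2-fold, and after rescaling 4 were higher and 3 lower. The tetraspanin Cd9 was at 480 and 50.3 FPKM and Tspan3 at 177 and 172 FPKM, of which Tspan3 turned in direction after rescaling. Lists of relatives were chosen by family, and no test sets them against the 33 genes.

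**Figure D5:**
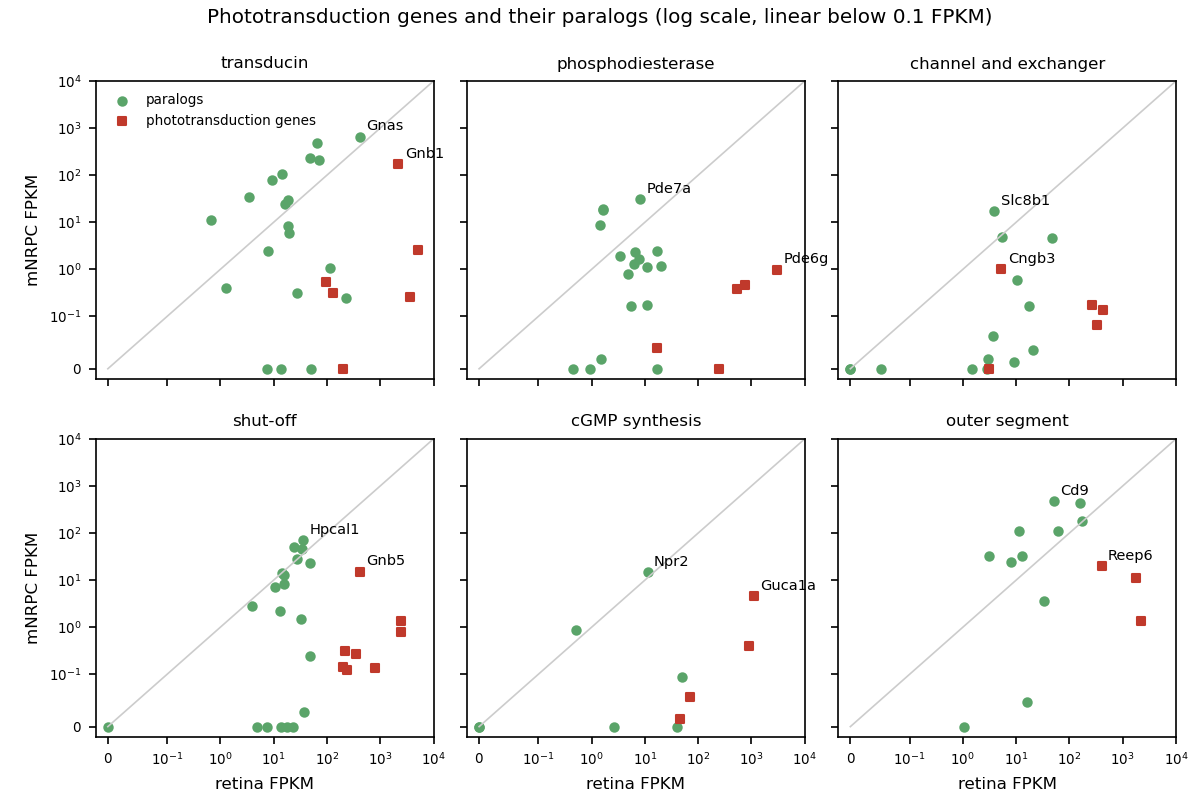
FPKM in mNRPCs against FPKM in retina for the phototransduction genes (squares) and their paralogs (circles), by step, on axes that are logarithmic above 0.1 FPKM and linear below, with 1 library per group. The line marks equal levels. All squares lie below the line, while paralogs lie on both sides of it, with Gnas at 655 and 416 FPKM.

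For the marker counts that follow, 30.0% of all genes compared were lower in mNRPCs and 24.5% higher. Marker genes of other cells were checked in the same libraries, with depths estimated from the values at 6.41e+06 fragments in mNRPCs and 5.09e+06 in retina. The highest marker of each list in retina was Pcp2 of bipolar cells at 277 FPKM, Calb2 of amacrine cells at 260 FPKM, Nefl of ganglion cells at 208 FPKM, Glul of Müller glia at 897 FPKM, Ttr of the pigment epithelium at 56.5 FPKM and Kdr of vessels at 29.5 FPKM. In mNRPCs it was Prkca at 2.27 FPKM, Pax6 at 123 FPKM, Nefm at 3.003 FPKM, Vim at 3138 FPKM (101 FPKM in retina), Rdh5 at 9.28 FPKM and Pdgfrb at 4.49 FPKM, of which Pax6 and Vim are also progenitor markers. Of the markers of other retinal neurons and Müller glia, 40 of 44 compared were lower in mNRPCs, their median level there was 0.197% of retina, and 13 of 46 were listed at 0. Their summed level was 3369 FPKM in mNRPCs, most of it Vim, and 4015 FPKM in retina. Of 6 pigment epithelium markers compared 5 were lower, with Rpe65 listed at 0 in mNRPCs and the sums at 9.35 and 99.2 FPKM. Of 5 vascular and immune markers compared 4 were lower, with sums of 4.54 and 47.8 FPKM. The part that the makeup of the samples has in the levels of the phototransduction genes was not tested. Of 12 progenitor markers 7 were higher in mNRPCs, among them Sox2 at 231 FPKM against 18.5 FPKM and Ccnd1 at 371 against 4.26 FPKM. Against the label, Rax was listed at 0 in mNRPCs and was among 3 progenitor markers that were lower there.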

How the data were processed

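The deposited values were FPKM per RefSeq transcript, made by the authors for 2 libraries. The study's methods name Bowtie 2 and eXpress, without stating whether these made this table, whereas the submitters' processing notes name TopHat2 2.0.10 and genome build GRCm38.p3. Accessions of its 106754 transcript rows were matched, versions dropped, to RefSeq (GRCm38.p6) or, failing that, GENCODE M21, and a symbol was found for 74283 (69.6%), holding 93.2% of the mNRPC and 89.9% of the retina FPKM. Rows of a symbol were summed to 31253 genes. Estimates below 1e-06 FPKM were read as 0, and a value of 0 can be a failed estimate. No other per-sample column was present.

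Genes that reached 1 FPKM in either library were compared by log2((mNRPC FPKM + 1)/(retina FPKM + 1)), following the study's log2(FPKM + 1), which understates changes of low genes. A gene counted as lower or higher past 2-fold. With 1 library per group no p-value was calculated. Depth was estimated from the amount that 1 fragment is worth in low FPKM values of transcripts of at least 1500 bases, using GENCODE lengths of paired transcripts. Fragment numbers and counting intervals depend on this estimate. A gene of 2000 bases reaches 3 fragments at 0.234 FPKM in mNRPCs and 0.295 FPKM in retina. Counting intervals (95%, exact Poisson, of the estimated mNRPC fragments, with the retina value taken as fixed) cover counting error only. For 32 of 79 transcript rows of the 33 genes no length was found, and the median of the gene was used.

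The 33 genes and all lists were chosen with earlier results of these data known. All 33 were named, with transcripts of at least 10% of a gene at 0.5 FPKM or more in mNRPCs or split in retina, the highest gene per library of each paralog and marker list, and the 3 highest and 3 lowest ratios among other photoreceptor genes. Some genes that this rule names enter the counts but are not reported here. Listed symbols Eys and Guca1c were not matched. Python 3.11.15, pandas 2.3.3, numpy 2.4.6, SciPy 1.17.1 and matplotlib 3.10.9 were used.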

Additional observations from a re-analysis of the deposited data

How the results depend on the processing

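No paired analysis was possible because mNRPCs and retina had 1 library each. All 33 genes were lower under every planned setting, except that with a minimum of 5 FPKM 32 were compared (Cnga3 dropped out). With a pseudocount of 0.1 in place of 1, the median log2 ratio was −10.71 for rod and −8.78 for cone genes, against −8.63 and −6.59. In an alternative chosen after seeing the data, genes at or under 3 estimated fragments were set to 3 fragments with no pseudocount, which gave −10.82 for rod genes, −7.71 for cone genes and −10.31 for genes of both, against −7.58. Of 230 values of single genes under the alternatives, 153 stayed within the counting interval, 77 moved beyond it and 0 changed sign. Rescaling each library to a common sum gave −9.64 for rod and −7.67 for cone genes and moved all 33 single values beyond the counting interval. It shifted the median of all genes from −0.12 to −0.68, raised the share of lower genes to 42.4% and cut the higher share of calls from 44.9 to 30.2%. Depth limits the result for 12 of the 33 genes, which did not exceed 3 estimated fragments in mNRPCs.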
